A study of Mus musculus with 10 samples.

Results

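Hair keratins and keratin-associated proteins (KAPs) are the structural proteins of the hair shaft and of the sheath that moulds it. The genes were chosen by name, not by level: every gene whose symbol starts with Krtap, and the hair keratins Krt25 to Krt28, Krt31 to Krt36, Krt39, Krt40, Krt71 to Krt75 and Krt81 to Krt86. Of 18193 genes with a probe set of their own on the array, 58 were members, 20 keratins and 38 KAPs. Per gene, the probe set that names this gene only and has the highest mean over the 10 arrays was used.

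The tissue came from young male Swiss nu/nu mice, a nude strain whose Foxn1 gene, a transcription factor of hair and thymus epithelium, is not functional. Such mice still build hair follicles, but their shafts bend and break at the skin surface. PSI-F grafts were pancreatic islets of Wistar rats in a clotted plasma scaffold with cultured skin fibroblasts of nu/nu mice. PSI grafts were the same scaffold with islets and no added fibroblasts. Both were laid over the abdominal muscle of mice made diabetic with a single injection of streptozotocin and removed 1, 3, 7 or 10 days later. Diabetic was a subcutaneous biopsy of a non-transplanted mouse given streptozotocin, and Control one of a healthy mouse. There was 1 array for each of these 10 conditions, so that no value within a condition has a replicate. The study took grafts from a pair of mice per graft kind and day and hybridised the RNA of better quality. Levels are log2 values as deposited, and a difference of 2 on this scale is 4-fold.

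As background, hair keratins pair up, a type I with a type II chain, into filaments, and KAPs fill the space between filaments and link them through cystine bonds. In a growing follicle, cells leaving the matrix switch on the inner root sheath keratins in the sheath and Krt35 and Krt31 low in the shaft. Krt33a, Krt33b, Krt34, Krt36, Krt81, Krt83 and Krt86 come on higher up in the cortex, and KAPs follow the keratins. This order is known mainly from human hair and sheep wool. A resting follicle makes next to none of them.

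The labels of grafts and biopsies were checked first. This check does not tell PSI-F from PSI or 1 day from another. Insulin RNA (Ins2; the islets were of rat and the array is of mouse) had levels of 10.59, 8.67, 9.95 and 9.40 in PSI-F grafts of days 1, 3, 7 and 10, and of 10.60, 8.95, 10.16 and 7.70 in PSI grafts, against 3.13 in Diabetic and 2.27 in Control. Epidermal Krt5 and Krt14 were between 9.64 and 11.87 on all 10 arrays, so every sample held skin epithelium. Graft pieces and biopsies are mixed tissue, in which fewer cells of a type and less RNA per cell cannot be told apart. Of 24 probe sets for the bacterial spike-in RNAs, 12 had their 4 highest levels on the 4 arrays of days 7 and 10, a difference between those 4 arrays and the other 6 that runs along with the day.

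Most members followed 1 common course. Median levels of the 58 members were 3.28, 2.17, 5.39 and 8.20 in PSI-F grafts of days 1, 3, 7 and 10, and 2.40, 6.64, 2.58 and 7.49 in PSI grafts, against 7.44 in Diabetic and 8.51 in Control. Hair genes were therefore low on 4 graft arrays, those of PSI-F on days 1 and 3 and of PSI on days 1 and 7, and higher on the other 4, of which PSI-F day 7 lay between, with 26 of 58 members at a level of 6 or more. Between 42 and 54 of the 58 members lay under the median level of all genes on those 4 arrays, against 14 on each biopsy array. The highest array was Control for 27 members and PSI-F day 10 for 25. On the PSI-F array of day 3, 0 members had a level of 6 or more, against 35 on the PSI array of that day.

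**Figure D1:**
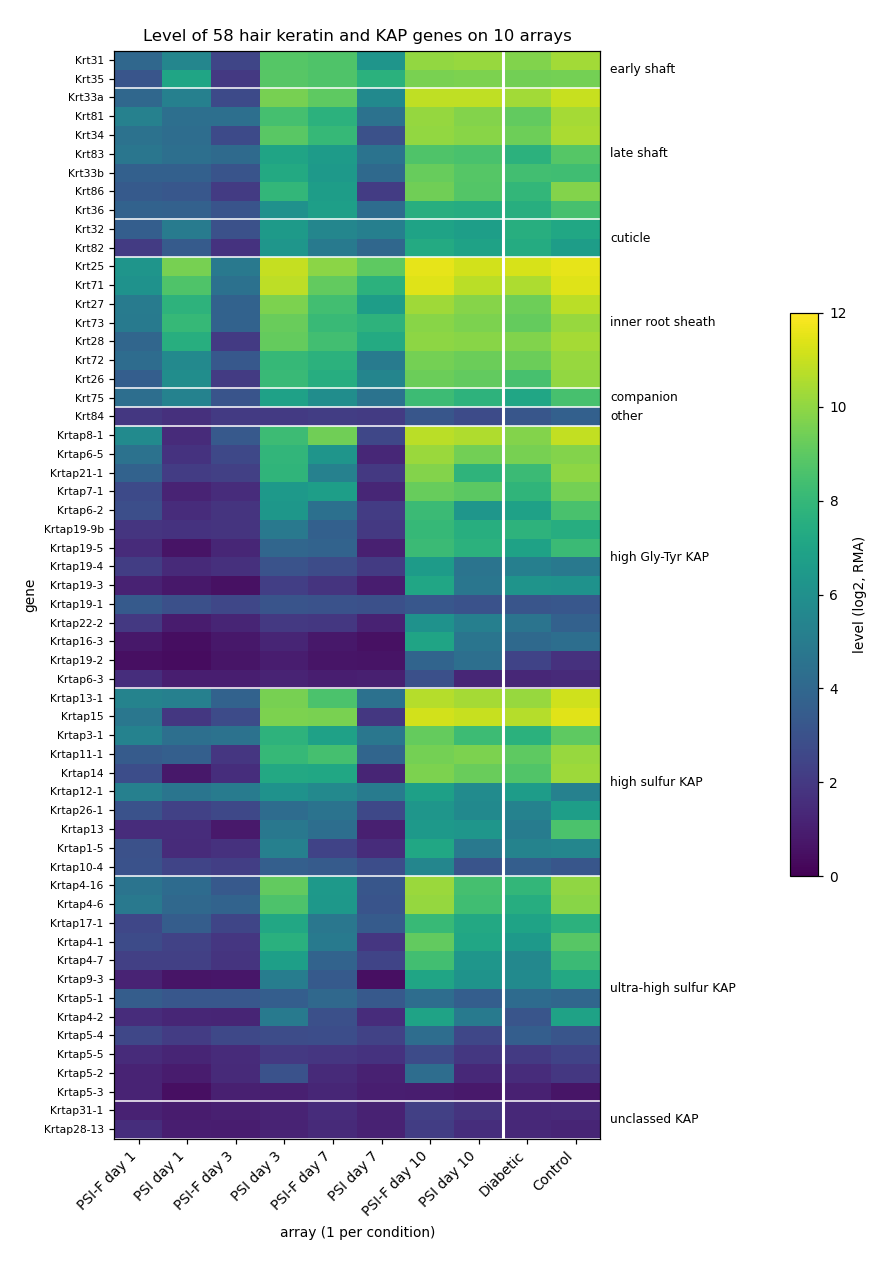
Colour gives the log2 level of each of 58 hair keratin and KAP genes (rows, grouped by class) on 10 arrays (columns, 1 per condition). The columns of PSI-F days 1 and 3 and of PSI days 1 and 7 are dark for most genes, while inner root sheath keratins keep some level in the 2 PSI columns.

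Of the 58 members, 46 reached a level of 6 on at least 1 array, 5 peaked between 4 and 6, and 7 stayed under 4 on every array. Among the 46, the Pearson correlation of a member with the mean of all other members over the 10 arrays had a median of 0.96, from 0.76 to 0.99, and 39 were at 0.9 or more. A member had to be high on some array to be among the 46, which favours those that share the common course. The members left out had correlations from -0.13 (Krtap5-3) to 0.89 (Krtap5-5). The arrays share 1 normalization, and the correlations are a description only. Of the 46, those that followed least were Krtap12-1 (0.76), Krt35 (0.83), Krtap16-3 (0.85), Krt73 (0.85) and Krtap22-2 (0.86). Krtap12-1, a high sulfur KAP, moved little, with 5.23, 4.98, 5.67 and 6.81 in PSI-F grafts of days 1, 3, 7 and 10, 4.68, 6.11, 4.99 and 5.79 in PSI grafts, 6.62 in Diabetic and 5.25 in Control. Its second probe set, which can bind several transcripts, spanned 1.65 to 6.05.

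Because most of these genes moved together, the DNA before the members' start sites was read. RefSeq promoters (250 bases before to 50 after each start, build GRCm38.p6) were found for 51 of the 58 members. The letters TATAAA, the core of the TATA box, stood on either strand in 80.4% of the members' promoters, against 13.6% of all 32851 promoters. On the sense strand from 45 to 15 bases before the start, they stood in 56.9% of the members' promoters, against 2.14% of all. The letters CTTTGAAG, a form of the LEF1 site described in hair keratin promoters, were in 9 of the 51 (17.6%) on either strand, against 1.66% of all promoters. The 9 were Krt31, Krt32, Krt33b, Krt34, Krtap11-1, Krtap14, Krtap15, Krtap16-3 and Krtap19-3, all with the match on the sense strand. In 7 of them the match began 240 to 247 bases before the start, and in Krtap14 and Krtap15 at 207 and 136. The letters ACGC, the FOXN1 core, went the other way. They were in 16 of the 51 (31.4%) on either strand, against 55.3% of all promoters. Promoters were not matched for base composition, and its part in the shares of these motifs was not tested. A match of letters is not a bound site, and the members are neighbours in gene clusters that arose by duplication. The 4 shown here are keratins and KAPs of the results below, 250 bases up to the start on the gene's own strand, with TATAAA and CTTTGAAG in capitals where that strand holds them.
Krt31 (chr11:100050552-100050801, minus strand): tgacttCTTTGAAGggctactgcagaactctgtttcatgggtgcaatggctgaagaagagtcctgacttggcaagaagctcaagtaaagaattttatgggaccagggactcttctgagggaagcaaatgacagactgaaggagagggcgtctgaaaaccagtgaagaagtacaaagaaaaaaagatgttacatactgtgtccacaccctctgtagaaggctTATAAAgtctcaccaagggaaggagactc
Krt34 (chr11:100041555-100041804, minus strand): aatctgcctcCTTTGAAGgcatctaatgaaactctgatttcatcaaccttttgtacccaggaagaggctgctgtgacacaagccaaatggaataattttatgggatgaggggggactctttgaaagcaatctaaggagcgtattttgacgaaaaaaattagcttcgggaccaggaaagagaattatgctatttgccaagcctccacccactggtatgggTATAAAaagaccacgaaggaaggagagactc
Krtap8-1 (chr16:89487953-89488202, minus strand): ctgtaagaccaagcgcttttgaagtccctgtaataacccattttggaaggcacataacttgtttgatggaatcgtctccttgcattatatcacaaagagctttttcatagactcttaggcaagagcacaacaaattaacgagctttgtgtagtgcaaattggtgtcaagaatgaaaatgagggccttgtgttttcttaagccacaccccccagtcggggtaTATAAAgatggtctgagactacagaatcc
Krtap15 (chr16:88828759-88829008, plus strand): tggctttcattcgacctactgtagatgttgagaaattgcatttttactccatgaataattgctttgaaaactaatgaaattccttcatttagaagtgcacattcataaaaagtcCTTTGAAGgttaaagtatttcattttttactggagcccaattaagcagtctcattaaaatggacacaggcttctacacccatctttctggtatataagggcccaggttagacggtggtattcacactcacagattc
Krt31 and Krt34, an early and a late shaft keratin, hold both motifs shown in capitals at nearly the same places. Krtap8-1 holds only the TATA letters and Krtap15 only the LEF1 letters.

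The early shaft keratins measured were Krt31 and Krt35, both type I chains made from the precortex upward. Krt85, also classed as early, was not among the measured members. Krt35 had levels of 3.18, 2.004, 8.72 and 9.57 in PSI-F grafts of days 1, 3, 7 and 10 and of 7.03, 8.87, 7.66 and 9.65 in PSI grafts, against 9.46 in Diabetic and 9.51 in Control. Krt31 had 3.997, 2.49, 8.69 and 10.05 in PSI-F grafts and 5.51, 8.83, 6.23 and 10.16 in PSI grafts, against 9.71 in Diabetic and 10.35 in Control. Both were at the bottom only in the PSI-F grafts of days 1 and 3. In the PSI grafts of days 1 and 7 the difference from Diabetic was -2.43 and -1.80 for Krt35, and -4.20 and -3.48 for Krt31.

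Late shaft keratins were further below Diabetic in those PSI grafts. Krt33a had 3.997, 2.68, 9.02 and 10.83 in PSI-F grafts of days 1, 3, 7 and 10 and 5.23, 9.55, 5.70 and 10.86 in PSI grafts, against 10.35 in Diabetic and 10.99 in Control. Krt34 had 4.51, 2.71, 8.06 and 10.07 in PSI-F grafts and 4.27, 8.92, 2.99 and 9.84 in PSI grafts, against 9.37 in Diabetic and 10.46 in Control. The type II chain Krt81 had 5.27, 4.36, 7.71 and 10.09 in PSI-F grafts and 4.39, 8.47, 4.51 and 9.76 in PSI grafts, against 9.10 in Diabetic and 10.38 in Control. Krt34 and Krt81 were thus about as low in PSI grafts of days 1 and 7 as in PSI-F grafts of days 1 and 3. The other 4, Krt33b, Krt36, Krt83 and Krt86, ran the same way, between 2.10 and 4.73 on the 4 low arrays.

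The cuticle keratins Krt32 and Krt82, a type I and a type II chain of the overlapping scales around the shaft, were dimmer. Krt32 had 3.56, 2.99, 5.51 and 6.97 in PSI-F grafts of days 1, 3, 7 and 10 and 4.98, 6.53, 5.20 and 6.74 in PSI grafts, against 7.52 in Diabetic and 7.15 in Control. Krt82 had 2.07, 1.74, 4.94 and 7.33 in PSI-F grafts and 3.45, 6.33, 3.99 and 6.91 in PSI grafts, against 7.39 in Diabetic and 6.69 in Control. They were the only hair keratins with a higher level in Diabetic than in Control apart from Krt33b, where the difference was 0.04. Krt84, known from human tongue papillae, was near background, with 1.93, 2.04, 2.18 and 3.20 in PSI-F grafts and 1.67, 2.04, 2.08 and 2.73 in PSI grafts, against 3.23 in Diabetic and 3.68 in Control.

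Inner root sheath keratins were nearer to Diabetic than late shaft keratins in the PSI grafts of days 1 and 7, with medians of -1.82 and -2.66, against -4.70 and -4.59. Krt25, a type I chain, had 6.24, 4.87, 9.94 and 11.55 in PSI-F grafts of days 1, 3, 7 and 10 and 9.53, 10.97, 9.03 and 11.17 in PSI grafts, against 11.27 in Diabetic and 11.55 in Control. Its type II partner in the sheath, Krt71, had 6.12, 4.50, 9.12 and 11.41 in PSI-F grafts and 8.70, 10.82, 7.73 and 10.75 in PSI grafts, against 10.52 in Diabetic and 11.43 in Control. Krt27 had 5.01, 3.77, 8.35 and 10.30 in PSI-F grafts and 7.77, 9.63, 6.69 and 9.84 in PSI grafts, against 9.34 in Diabetic and 10.75 in Control. On day 1 the PSI-F grafts had less of these 3 (differences of -3.28, -2.57 and -2.75 from PSI). Krt28 had 3.97, 2.02, 8.37 and 9.98 in PSI-F grafts and 7.51, 9.17, 7.33 and 9.85 in PSI grafts, against 9.72 in Diabetic and 10.36 in Control. Krt73 followed the common course less than most members reaching 6. It had 4.96, 3.77, 8.14 and 9.87 in PSI-F grafts and 8.05, 9.24, 7.75 and 9.62 in PSI grafts, against 9.15 in Diabetic and 10.14 in Control. In both, PSI grafts of days 1 and 7 were nearer to the biopsies than to the lowest array. Krt75 of the companion layer, the cell sheet next to the inner root sheath, had 4.31, 3.12, 5.87 and 8.24 in PSI-F grafts and 5.31, 6.89, 4.59 and 7.77 in PSI grafts, against 7.09 in Diabetic and 8.51 in Control.

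**Figure D2:**
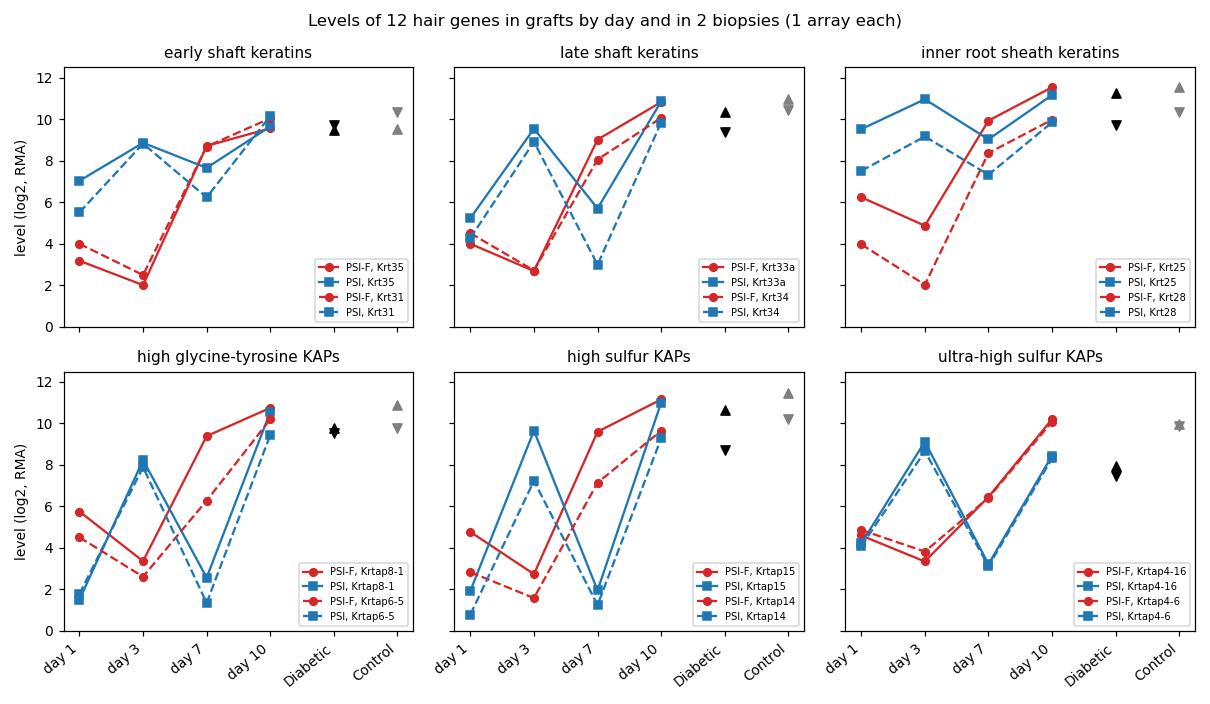
Log2 levels (vertical axis) of 2 genes per class in PSI-F grafts (red) and PSI grafts (blue) on days 1, 3, 7 and 10, and in the Diabetic (black) and Control (gray) biopsies, 1 array each; the first gene of a panel has solid lines and upward triangles, the second dashed lines and downward triangles. In PSI grafts of days 1 and 7 Krt35 is at 7.03 and 7.66, against 9.46 in Diabetic, while Krtap15 is at 1.92 and 1.95, against 10.64 in Diabetic.

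Of the KAPs, 14 belong to the high glycine-tyrosine families, the class that lies near the matrix in wool. Krtap8-1 had 5.75, 3.36, 9.39 and 10.75 in PSI-F grafts of days 1, 3, 7 and 10 and 1.499, 8.23, 2.56 and 10.55 in PSI grafts, against 9.76 in Diabetic and 10.88 in Control. Krtap6-5 had 4.51, 2.61, 6.28 and 10.20 in PSI-F grafts and 1.78, 7.89, 1.35 and 9.44 in PSI grafts, against 9.54 in Diabetic and 9.79 in Control. Krtap21-1 had 3.78, 2.26, 5.26 and 9.76 in PSI-F grafts and 2.149, 7.84, 1.997 and 7.82 in PSI grafts, against 8.18 in Diabetic and 9.97 in Control. For these 3 the PSI grafts of days 1 and 7 and the PSI-F graft of day 3 were at 3.36 or less, near background, where levels have no order. The 6 Krtap19 genes were dimmer: in the PSI graft of day 3 their median difference from Diabetic was -2.51, and in the PSI-F graft of day 7 it was -2.74. Krtap19-3 had 1.15, 0.55, 1.80 and 7.11 in PSI-F grafts and 0.76, 2.25, 0.97 and 4.72 in PSI grafts, against 6.20 in Diabetic and 6.11 in Control. Krtap16-3 had 0.78, 0.77, 0.78 and 7.02 in PSI-F grafts and 0.45, 1.23, 0.55 and 4.68 in PSI grafts, against 4.09 in Diabetic and 4.33 in Control. Krtap22-2 had 2.01, 1.23, 1.96 and 6.13 in PSI-F grafts and 0.91, 2.01, 1.13 and 5.17 in PSI grafts, against 4.62 in Diabetic and 3.73 in Control. All 3 lay under the median level of all genes on every graft array before day 10.

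High sulfur KAPs numbered 10. Krtap13-1 had 5.39, 3.78, 8.59 and 10.66 in PSI-F grafts of days 1, 3, 7 and 10 and 5.21, 9.52, 4.49 and 10.37 in PSI grafts, against 10.14 in Diabetic and 11.13 in Control. Krtap15 had 4.77, 2.74, 9.60 and 11.16 in PSI-F grafts and 1.92, 9.65, 1.95 and 11.004 in PSI grafts, against 10.64 in Diabetic and 11.47 in Control. Krtap14 had 2.83, 1.58, 7.14 and 9.64 in PSI-F grafts and 0.78, 7.23, 1.25 and 9.28 in PSI grafts, against 8.74 in Diabetic and 10.22 in Control. Krtap15 spanned 9.54 on the log2 scale over the 10 arrays. Krtap11-1, a KAP of the cortex, had 3.43, 1.89, 8.46 and 9.47 in PSI-F grafts and 3.65, 8.03, 3.89 and 9.64 in PSI grafts, against 9.02 in Diabetic and 10.16 in Control. Krtap3-1 had 5.34, 4.50, 6.85 and 9.18 in PSI-F grafts and 4.38, 7.75, 4.77 and 8.21 in PSI grafts, against 7.68 in Diabetic and 9.04 in Control. Krtap10-4, dim on most arrays, had 3.02, 2.24, 3.47 and 5.52 in PSI-F grafts and 2.45, 3.65, 2.85 and 3.10 in PSI grafts, against 3.61 in Diabetic and 3.20 in Control, so that PSI-F day 10 stood above the rest.

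The 12 ultra-high sulfur KAPs are the most cystine-rich of the shaft. Krtap4-16 had 4.60, 3.34, 6.46 and 10.20 in PSI-F grafts of days 1, 3, 7 and 10 and 4.21, 9.12, 3.21 and 8.45 in PSI grafts, against 7.93 in Diabetic and 9.99 in Control. Krtap4-6 had 4.86, 3.82, 6.41 and 10.08 in PSI-F grafts and 4.07, 8.66, 3.12 and 8.31 in PSI grafts, against 7.49 in Diabetic and 9.89 in Control. Krtap17-1 had 2.56, 2.49, 4.76 and 8.08 in PSI-F grafts and 3.53, 7.18, 3.44 and 7.25 in PSI grafts, against 6.96 in Diabetic and 7.73 in Control. In the PSI graft of day 3 all 5 Krtap4 genes were above Diabetic, by 1.09 to 1.72, and so was Krtap5-2, by 1.495, while the median difference of all members was -0.57. The Krtap4 genes are near copies of each other, as are the Krtap5, Krtap6 and Krtap19 genes, and a probe set of 1 may also read another. Of the 5 Krtap5 genes, Krtap5-2 had 1.18, 1.42, 1.44 and 4.29 in PSI-F grafts and 0.91, 3.03, 1.10 and 1.39 in PSI grafts, against 1.53 in Diabetic and 1.95 in Control. It was above 2 only in the PSI-F graft of day 10 and the PSI graft of day 3. The other 4 Krtap5 genes stayed at 4.30 or less. The 2 KAPs of no class, Krtap28-13 and Krtap31-1, were between 0.90 and 2.27 on all arrays.

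The first question of the design is how grafts with fibroblasts differed from grafts without them on the same day. On day 1, 7 members of the graft with fibroblasts lay at least 4-fold below the PSI graft, the early shaft keratin Krt35 (-3.86) and the sheath keratins Krt25, Krt26, Krt27, Krt28, Krt71 and Krt73, against 0.121% of all genes. Krt28 differed by -3.54 and Krt25 by -3.28. A further 4 members lay at least 4-fold above it, Krtap8-1 (4.25), Krtap15 (2.84), Krtap6-5 (2.73) and Krtap14 (2.05), against 0.066% of all genes. All 7 sheath keratins were lower (median -2.75), and all 14 high glycine-tyrosine KAPs were higher, though by a median of only 0.79. Late shaft keratins were close, with a median difference of 0.11. The 4 higher KAPs were at 0.78 to 1.92 in PSI, below the median of all genes, whereas Krtap8-1 was at 5.75 in PSI-F. With levels under 3 set to 3, an alternative added after the values were seen, 1 of the 4 was still at least 4-fold higher while the 7 stayed lower, and the class medians of the high glycine-tyrosine and high sulfur KAPs on day 1 were 0.00 and 0.01.

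On day 3, PSI-F lay at least 4-fold below PSI for 40 of the 58 members and above it for 0, against 0.566% and 0.159% of all genes. Of the 132 genes 4-fold apart that day, the members made up 30.3%. Krt28 (-7.15), Krtap15 (-6.91), Krt35 (-6.86) and Krt33a (-6.86) differed most. Class medians were -6.60 for early shaft, -6.03 for inner root sheath, -4.17 for late shaft and -4.06 for cuticle keratins, and -4.01, -3.73 and -2.17 for ultra-high sulfur, high sulfur and high glycine-tyrosine KAPs. With levels under 3 set to 3, 36 members were at least 4-fold lower, and the medians of these KAP classes were -1.98, -2.73 and -0.54. The only members not lower were Krtap5-3 (0.03) and Krt84 (0.01), both near background on all arrays.

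On day 7 the sign was reversed: PSI-F lay at least 4-fold above PSI for 25 members and below it for 0, against 0.258% and 0.077% of all genes. Krtap15 (7.65), Krtap8-1 (6.83) and Krtap14 (5.90) differed most, and 9 of the 10 genes with the highest difference on the array that day were members. Late shaft keratins had a median of 3.20, with Krt34 at 5.07 and Krt86 at 4.54, while early shaft keratins had 1.76, sheath keratins 1.39 and cuticle keratins 0.63. In the PSI graft of that day, the median difference from Diabetic was -4.59 for late, -2.64 for early and -2.66 for sheath keratins. Krtap6-3 (-0.08) was the only member below 0. In that PSI graft Krtap15, Krtap8-1 and Krtap14 were at 1.95, 2.56 and 1.25, near background. With levels under 3 set to 3, 20 members were at least 4-fold higher. The medians of high glycine-tyrosine, high sulfur and ultra-high sulfur KAPs then went from 1.25, 2.69 and 1.34 to 0.35, 1.82 and 0.55.

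On day 10, PSI-F lay 4-fold or more above PSI for 8 members and below it for 0, against 0.066% and 0.0495% of all genes. All 8 were KAPs: Krtap5-2 (2.91), Krtap10-4 (2.42), Krtap19-3 (2.39), Krtap16-3 (2.35), Krtap1-5 (2.32), Krtap4-7 (2.05), Krtap4-1 (2.02) and Krtap4-2 (2.01). Ultra-high sulfur KAPs had a median of 1.74, against 0.23 for late shaft, 0.25 for sheath and -0.10 for early shaft keratins. KAPs of chromosome 11 (10 genes, the Krtap4 family among them) had a median of 1.76, and the 20 KAPs of chromosome 16 had 0.48. The lowest were Krtap19-2 (-0.53), Krtap11-1 (-0.17) and Krt31 (-0.12).

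**Figure D3:**
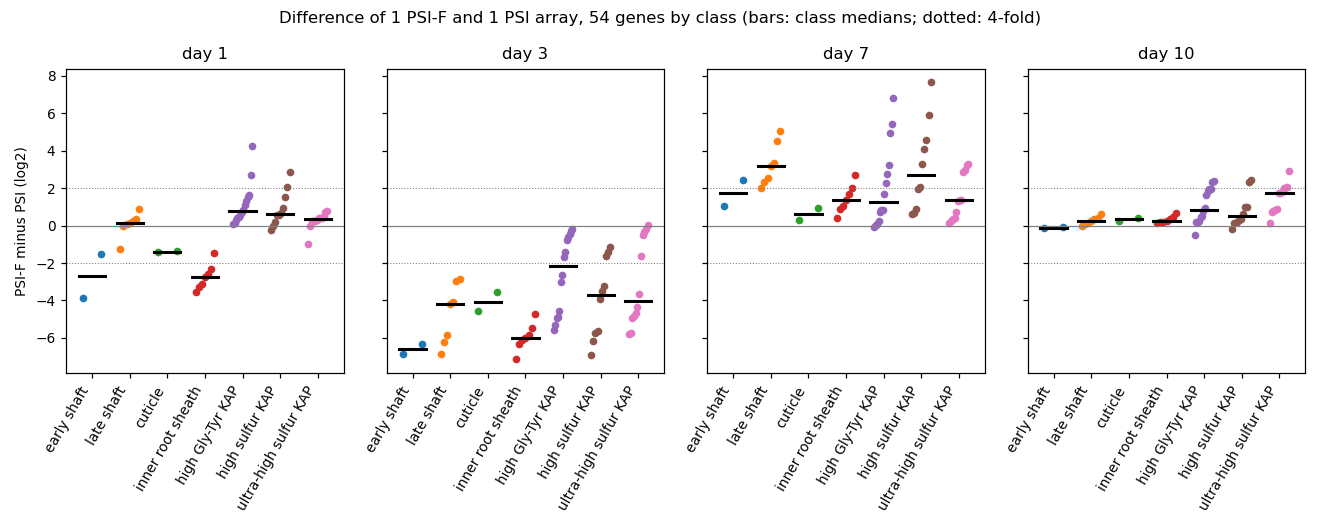
Each point is 1 gene's difference in log2 level, PSI-F minus PSI, on days 1, 3, 7 and 10 (panels), by class on the horizontal axis; black bars are class medians and dotted lines mark 4-fold. Sheath keratins have a median of -2.75 on day 1 and ultra-high sulfur KAPs one of 1.74 on day 10.

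Set against the single Diabetic array, which all 8 comparisons share, members down 4-fold or more numbered 44 for PSI-F and 40 for PSI on day 1, where 1.14% and 0.797% of all genes were. None was up 4-fold there, against 2.16% and 2.0% of all genes. On day 3 those down numbered 44 for PSI-F and 6 for PSI, against 1.28% and 0.324% of all genes, and none was up, against 2.95% and 2.0%. On day 7 those down numbered 14 for PSI-F and 42 for PSI, against 0.813% and 0.819%, and none was up, against 2.17% and 2.19%. On day 10 none was down in either graft, against 0.429% and 0.368% of all genes. The 6 of the PSI graft of day 3 were all high glycine-tyrosine KAPs, Krtap16-3, Krtap19-3, Krtap19-4, Krtap19-5, Krtap19-9b and Krtap22-2. Members up 4-fold from Diabetic were found only on day 10, 7 for PSI-F (1.1% of all genes) and 1 for PSI (1.3%). The 7 were the 5 Krtap4 genes, Krtap16-3 and Krtap5-2, and the 1 in PSI was Krtap19-2.

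Between the biopsies, in Diabetic, 6 members were at least 4-fold lower than in Control and 0 higher, against 0.824% of all genes lower and 0.473% higher. They were the 5 Krtap4 genes, by -3.75 to -2.06, and Krtap13 (-3.58). At 2-fold, 23 members were lower and 1 higher, against 6.89% and 4.12%. Markers of other epithelium were lower too, 14 of 17 of the epidermis between follicles (7 at least 2-fold), 7 of 8 of outer root sheath and stem cells (4 at least 2-fold) and 4 of 5 of sebaceous gland (3 at least 2-fold). Among them Krt14 had 9.66 in Diabetic and 11.87 in Control. Krt17 had 8.49 and 10.70 and the gland gene Elovl3 had 6.80 and 8.92, in the same order. Krt15 counts in both the epidermis and the outer root sheath list, and Krt17 also counts among the matrix and shaft regulators. All 6 skeletal muscle genes were higher in Diabetic, by 0.22 to 0.65, and all 5 proliferation genes were lower. The part of these markers in the hair gene difference was not tested. Against Control, the Krtap4 genes of the PSI-F graft of day 10 differed by 0.04 to 0.24, and those of the PSI graft of day 10 by -1.97 to -1.55. The Krtap4 genes of the PSI-F graft of day 10 were thus 2.27 to 3.79 above Diabetic and within 0.24 of Control.

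Early and late shaft keratins were compared as differences from Diabetic, so that each probe set is read only against itself. The median of Krt31 and Krt35 minus that of the 7 late keratins was -1.45, -2.08, 0.42 and -0.63 in PSI-F grafts of days 1, 3, 7 and 10, and 1.38, -0.05, 1.95 and -0.20 in PSI grafts. In PSI grafts of days 1 and 7 the early keratins were thus nearer to Diabetic than the late ones. On the PSI-F array of day 3 Krt35 and Krt31, at 2.004 and 2.49, were under the median of all probe sets, so that their difference from Diabetic mostly gives their level in Diabetic, and no order is read there. Krt35 carried most of this: in the PSI graft of day 1 the difference from Diabetic was -5.11 to -3.32 for late keratins, a range that holds Krt31 (-4.20) but not Krt35 (-2.43). In the PSI graft of day 7 it was -6.38 to -3.12 for late keratins, which holds Krt31 (-3.48) but not Krt35 (-1.80). Relative to PSI-F day 3, the array with the lowest member median, the PSI graft of day 1 was higher by a median of 4.20 in sheath, 4.03 in early shaft, 1.85 in cuticle and 0.61 in late shaft keratins. The high glycine-tyrosine, high sulfur and ultra-high sulfur KAPs of that graft were at -0.29, -0.18 and 0.03 from it. The PSI graft of day 7 gave 3.36, 4.70, 2.23 and 0.41 for the same keratin classes, in that order, and KAP medians from -0.08 to 0.10. PSI-F day 3 was picked for its low levels, with 54 of the 58 members under the median of all genes. No order of classes is therefore read from differences to that array. Adding the KAPs, with high glycine-tyrosine as early and the sulfur-rich classes as late after the order in wool, turned the sign against Diabetic, with -1.28 and -0.31 in the PSI grafts of days 1 and 7. Against Control, with the KAPs added likewise, the sign did not turn in these grafts (0.52 and 0.66). In these 2 grafts the high glycine-tyrosine KAPs had median differences from Diabetic of -5.40 and -4.98. Their median level was 1.32 in both, with 13 of 14 under the median of all probe sets. The differences thus mostly give their level in Diabetic, and no order is read from the values with KAPs added.

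**Figure D4:**
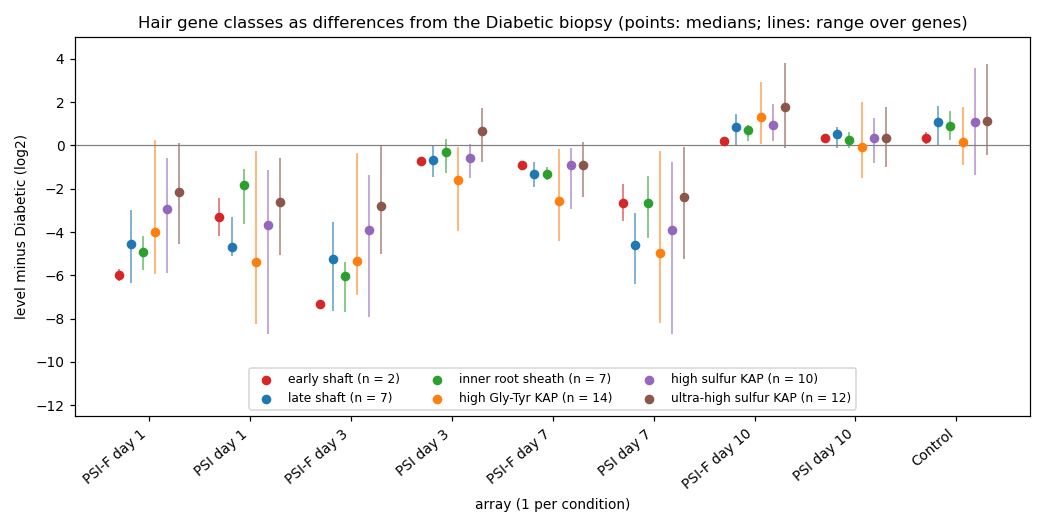
Points are class medians of the log2 level minus that in Diabetic for each graft array and Control, and vertical lines run from the lowest to the highest gene of the class. In PSI on day 1 the sheath keratins (median -1.82) lie above the late shaft keratins (-4.70), and in PSI-F on day 1 they do not (-4.92 and -4.55).

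Tests over several arrays, with days as replicates, called no member. For PSI-F minus PSI over the 4 days, with day as a block, limma called 0 of 58 members (0% of all genes), 0 at an unadjusted p under 0.05 where 6.28% of all genes had one, and the smallest adjusted p was 0.751, that of all genes too. Krt73 had the smallest unadjusted p of the members, with -1.98 (SE 0.88). The members split evenly, 29 above and 29 below 0. This mean rests on opposite days. Without day 3, 36 members were higher at an unadjusted p under 0.05 and 0 lower, against 9.11% of all genes in either direction. Without day 7, 8 were lower and 0 higher, against 3.38% of all genes in either direction. Without day 10, 5 were lower and 0 higher, against 9.35%, and without day 1 there were 0, against 3.38%. No member had an adjusted p under 0.05 in any of these fits. The members were read on the same arrays, so such counts are not independent results.

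For late grafts (days 7 and 10) minus early ones (days 1 and 3), 8 arrays, all 58 members were above 0, with a median of 2.21 against 0.01 for all genes. None had an adjusted p under 0.05, where 0.176% of all genes were called higher and 0.687% lower. An unadjusted p under 0.05 was found for 15 members, all higher as against 17.1% of all genes in either direction. Krt36 had the smallest adjusted p, 0.207 (difference 2.33, SE 0.80). Krt31 and Krt35 differed by 3.58 (SE 1.30) and 3.63 (SE 1.33), with adjusted p of 0.227 and 0.231. Of the 24 spike-in probe sets, 12 were brightest on the same 4 late arrays, and their part in this was not tested.

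For the 8 grafts minus the 2 biopsies, 54 of 58 members were lower, with a median of -2.44, and 0 had an adjusted p under 0.05, where 2.16% of all genes were called higher and 0.693% lower. Unadjusted, 5 members had a p under 0.05, all lower, against 20.8% of all genes in either direction. Krt84 came nearest, with -1.22 (SE 0.33) and an adjusted p of 0.0833. Without the PSI-F array of day 10, limma called Krt84 (-1.36, adjusted p = 0.0196) and Krtap19-3 (-4.42, adjusted p = 0.0365) lower.

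Other genes of the growing follicle followed the members in part. Foxn1, carried by these mice as a mutant gene whose RNA the array still reads, had 2.84, 2.24, 4.88 and 6.63 in PSI-F grafts of days 1, 3, 7 and 10 and 3.56, 5.18, 3.56 and 6.68 in PSI grafts, against 6.84 in Diabetic and 7.18 in Control. Its correlation with the mean of the members over the 10 arrays was 0.97. The list of regulators and enzymes of matrix and shaft had 19 measured genes. On day 3, PSI-F lay 4-fold or more below PSI for 8 of them, against 0.566% of all genes. On day 1 it did so for 4, against 0.121%. None was 4-fold apart on days 7 and 10, where few of all genes were either. The list median had a correlation of 0.90 with the mean of the members. On day 3 the largest were S100a3 (-6.31), a calcium-binding protein of the cuticle, Padi3 (-5.42), which citrullinates trichohyalin, Tchh (-4.74), trichohyalin itself, and Msx2 (-3.39), a matrix transcription factor. On day 7, when late keratins and KAPs were far apart, the list had a median of 0.03, against 1.52 for the members. Tchh (1.70), Tgm3 (1.37), a transglutaminase of the follicle, Foxn1 (1.32) and Padi3 (0.91) were the highest, S100a3, Msx2 and Hoxc13 differed by 0.03, 0.19 and 0.16, and Shh, a signal of the matrix, by -0.89. Single genes of the list had correlations with the mean of the members from 0.33 (Krt17) to 0.97 (Foxn1).

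**Figure D5:**
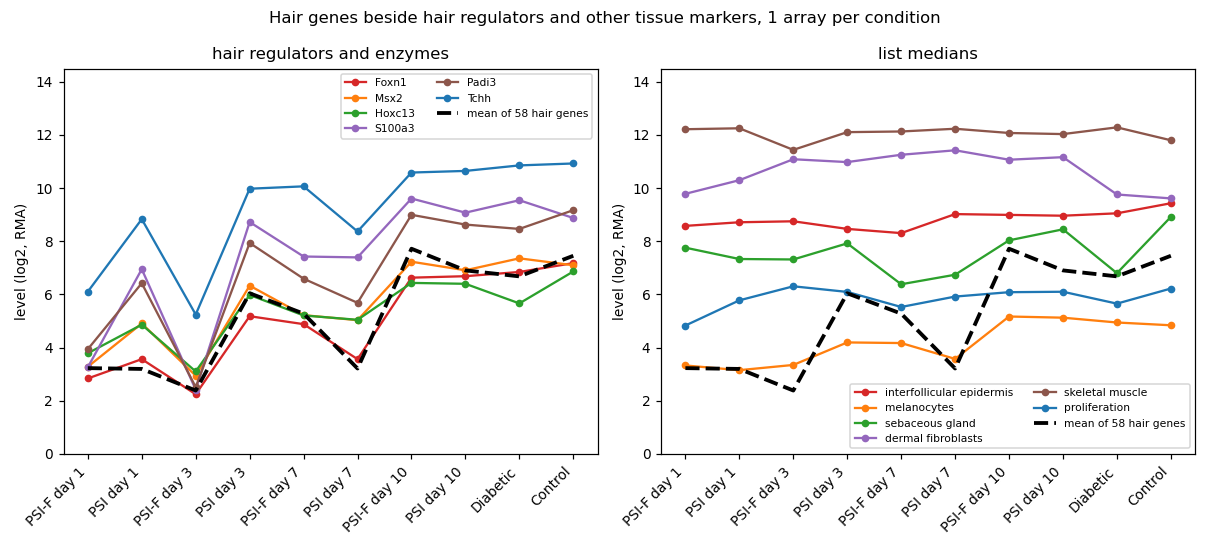
Log2 levels on 10 arrays of 6 hair regulators and enzymes (left) and medians of 6 marker lists (right), each beside the mean of the 58 hair genes (dashed); lines only join the points of 1 gene or list. The epidermis line stays between 8.31 and 9.43 while the hair mean dips on PSI-F day 3.

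Markers of other cell types were read beside these. The 17 genes of the epidermis between follicles had medians of 8.31 to 9.43, with none 4-fold apart between PSI-F and PSI on any day and a correlation of 0.42 with the members. The 7 melanocyte genes followed the members (correlation of the list median 0.96), and 1 of 7 lay 4-fold or more below PSI in the PSI-F graft of day 3. The 8 genes of outer root sheath and follicle stem cells (0.20), the 5 measured of sebaceous gland (0.50), the 5 of dermal papilla (0.62, at 1.57 to 2.35 on all arrays), the 6 of skeletal muscle (0.11) and the 6 of dermal fibroblasts (-0.14) had no gene 4-fold apart on any day. Of all genes, at most 0.566% were 4-fold lower and 0.258% 4-fold higher on any day, so 0 in such short lists says little. At 2-fold, PSI-F was lower for 1, 2 and 2 outer root sheath genes on days 1, 3 and 7. The epidermis had 1 and 2 such genes on days 3 and 7. Sebaceous gland had 1 on day 3 and dermal papilla 1 on day 7. The outer root sheath, epidermis, sebaceous gland and dermal papilla lists had no gene 2-fold higher. For melanocytes, PSI-F was 2-fold lower for 1 gene on day 1 and 4 on day 3. It was 2-fold higher for 1 on day 7 (Tyrp1, 1.05). The muscle genes had a median of -0.61 on day 3. Proliferation genes (5 measured, 0.31) had a median of -1.28 in PSI-F against PSI on day 1, with 4 of 5 at least 2-fold lower. Their part in the hair gene differences was not tested.

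By name, the rule takes in 79 genes of the RefSeq list, and 21 of them had no probe set of their own in the annotation used. Of these 21, 6 KAPs were read only by probe sets shared with other genes. The 1 shared by Krtap4-13 and unnamed neighbours had 3.22, 3.46, 5.03 and 9.11 in PSI-F grafts of days 1, 3, 7 and 10 and 3.13, 7.69, 3.01 and 6.56 in PSI grafts, against 5.72 in Diabetic and 8.23 in Control, a course like that of the Krtap4 genes above. The other 15, among them Krt39, Krt40 and Krt74, were not analysed here. Krt85, named in the rule, was neither among the 79 nor among the measured members.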

How the data were processed

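The values were made by the authors from Affymetrix Mouse Genome arrays with R 2.15.0 and affy 1.36.0 by RMA, which corrects background, makes probe distributions equal by quantiles and summarises by median polish, and deposited as log2 levels of 45101 probe sets without a filter. RMA makes the level distribution the same on all arrays, with medians from 2.82 to 2.94, and leaves no count or depth. With 1 array per condition, the number of arrays limits the precision.

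Of the probe sets, 64 controls were left out. Gene symbols came from the platform annotation, in which 34945 of the 45037 others name 1 gene, 932 several and 9160 none. All 58 members matched RefSeq symbols. KAPs were classed by family number, since the protein compositions planned for this were not used here. The members and all gene lists were chosen with earlier results of these data known.

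Within a day, PSI-F minus PSI and graft minus Diabetic are differences of 2 arrays with no test, counted at 4-fold, the threshold of the methods. Comparisons over several arrays were fitted with limma 3.58.1 (R 4.3.3; lmFit and eBayes) on 45037 probe sets, with Benjamini-Hochberg adjusted p under 0.05 as a call, counted on 1 probe set a gene, and tested on simulated data. These p-values measure the spread between single arrays of different days or graft kinds. Other steps used pandas 2.3.3 and numpy 2.4.6 under Python 3.11.15, and matplotlib 3.10.9 for figures.

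Values on all 10 arrays are given for the 3 members with the highest mean in each of the 7 named classes (sheath and companion layer together), those with the largest PSI-F minus PSI difference on each day, those called by limma and the 5 that follow the common course least among those reaching a level of 6, besides Foxn1 and up to 4 list genes. Other members are given by counts and ranges. Alternatives were a 2-fold threshold, averaging a gene's probe sets, no probe sets ending in _s_at or _x_at, cyclic loess (3 iterations), members reaching 6 only, Control as baseline, KAPs added to the stages, other blocks or an intensity trend in limma, leaving out arrays, and, added after the data were seen, levels under 3 set to 3.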

Additional observations from a re-analysis of the deposited data

Results flagged for a closer look

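For 4 classes the median PSI-F minus PSI difference was at least 1 on both of 2 days with opposite signs, with every member on the side of its class on these 2 days. Early shaft keratins had medians of -2.69 on day 1, -6.60 on day 3 and 1.76 on day 7, so that day 7 minus day 1 was 4.44 and day 7 minus day 3 was 8.36 (2 genes). Inner root sheath keratins had -2.75, -6.03 and 1.39 on these days, giving 4.14 for day 7 minus day 1 and 7.42 for day 7 minus day 3 (7 genes). Late shaft keratins had -4.17 on day 3 and 3.20 on day 7, 7.36 apart (7 genes), and high sulfur KAPs had -3.73 and 2.69, 6.42 apart (10 genes; -2.73 and 1.82 with levels under 3 set to 3). Both cuticle keratins changed sign too, but with a median of only 0.63 on day 7. With 1 array per graft and day these differences between days were not tested, and the members of a class were read on the same 2 arrays.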

How the results depend on the processing

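At 2-fold in place of 4-fold, members apart between PSI-F and PSI numbered 21 on day 1 (9 higher, 12 lower) and 16 on day 10, all higher, and members lower than Diabetic numbered 17 in PSI on day 3, 38 in PSI-F on day 7 and 2 in PSI on day 10. Against Control in place of Diabetic, members at least 4-fold lower numbered 16 in PSI on day 3 and 31 in PSI-F on day 7. On day 10 they numbered 1 in PSI-F and 3 in PSI. For these 2-fold counts and counts against Control, the share of all genes was not determined, so they are not read against it. Early minus late keratins against Control were 2.10 and 0.72 in PSI on days 1 and 3, 1.02 in PSI-F on day 7, and on day 10 they were 0.17 (PSI-F) and 0.60 (PSI), where the sign turned in PSI on days 3 and 10 and in PSI-F on day 10. With KAPs added they were -0.87, -1.45, -1.34 and 0.26 in PSI-F grafts of days 1, 3, 7 and 10, and -1.28, -1.02 and -0.31 in PSI grafts of days 1, 3 and 7, which reverses PSI on days 1 and 7 and turns PSI-F on days 7 and 10; the cause was not tested. With KAPs added and Control as baseline, added after the data were seen, they were -0.088, -0.52, -0.14 and 0.088 in PSI-F grafts and 0.52, -0.60, 0.66 and 0.43 in PSI grafts of days 1, 3, 7 and 10, so that PSI on days 1 and 7 kept its sign. Leaving out 1 array gave 0 to 2 calls for grafts minus biopsies, the 2 without PSI-F day 10, and 0 for days 7 and 10 minus days 1 and 3. Of 120 alternative values of class medians, 105 stayed within 0.5 and 0 reversed; the other 15 were mostly KAP medians with levels under 3 set to 3 or with members reaching 6 only. The PSI-F minus PSI fit was paired by day, and without day as a block 0 members were called too. A limit is the single array per condition: a difference between 2 grafts cannot be told apart from one between 2 mice or 2 pieces of skin, and low levels read as background have no order.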
